A study of Bos taurus with 6 samples.

Results

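The 10 genes described here regulate oxidative metabolism in muscle: the coactivators PPARGC1A and PPARGC1B, the nuclear receptors ESRRA, ESRRG, PPARA and PPARD, the transcription factors NRF1 and TFAM, the muscle coregulator PERM1 and the kinase gene PDK4. They were matched by gene name in the transcript files, and are 10 of 17258 genes listed there and 10 of the 9765 genes that averaged FPKM 1 or more in a breed and were tested. Libraries for RNA-Seq came from the longissimus dorsi of 3 Shandong Black cattle, a breed that combines Japanese black, Luxi and Bohai black cattle, and of 3 Luxi cattle, a local yellow breed, all 18 months old and with 1 library per animal. The breeds came from different suppliers, so that breed and source cannot be told apart. The study looked for genes behind the difference in fat deposition between the breeds.

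PPARGC1A encodes PGC-1α and PPARGC1B encodes PGC-1β, coactivators that bind no DNA themselves and work through nuclear receptors and NRF1. The estrogen-related receptors, encoded by ESRRA and ESRRG, and the PPAR receptors switch on genes of fatty acid oxidation and the respiratory chain, and NRF1 acts on TFAM, whose product enters mitochondria and drives transcription of mitochondrial DNA. PERM1 is a muscle gene induced by PGC-1 and the estrogen-related receptors, and PDK4 inhibits pyruvate dehydrogenase, which turns fuel use from glucose to fatty acids and is known to rise in fasting.

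Values are gene FPKM (fragments per kilobase of exon, scaled to the size of the library), the sum over the annotated transcripts of a gene and over those assembled transcripts that have at least 50% of their bases on its exons on the same strand. Differences are Luxi minus Shandong Black on the scale of log2(FPKM + 1), where weakly expressed genes change less than their ratio. Genes passed as called when the limma adjusted p was under 0.05 and the log2 fold change reached 1 in either direction. The 10 genes were chosen with their FPKM in these 6 animals known, so their differences between the breeds are given as a description, and no test of them is read.

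The libraries rest on 14.1 to 14.6 gigabases of aligned sequence in Shandong Black cattle and 17.5 to 17.99 in Luxi cattle. Markers of skeletal muscle were high in every library, with summed FPKM of 46652 to 55705 in Shandong Black cattle and 24060 to 72992 in Luxi cattle. Luxi replicate 1 stood apart, with the lowest sum of these markers and the highest sum of endothelial markers (78.02 FPKM against 20.2 to 37.2 in the other libraries). The largest part of the muscle sum was ACTA1, at 12237 FPKM in this animal and 32188 to 54910 in the others. ACTA1, CKM, DES and RYR1 were lowest in this animal, and TTN, MB, MYBPC1 and PYGM were not. The 9 slow fibre markers summed to 26564 to 32818 FPKM in Shandong Black cattle and 3429 to 13863 in Luxi cattle. Of this, MYL2 alone held 16912 to 24909 and 1513 to 7936 FPKM. In Luxi cattle 8 of the 9 were lower. TNNI1 was called, though not without Luxi replicate 2, without any 1 of the Shandong Black animals or with annotated transcripts alone. MYL3 went the other way, at 13.1, 46.4 and 26.6 FPKM in the Shandong Black animals and 1180, 63.5 and 244 in the Luxi animals. Its log2 fold change of 3.33 was not called (limma adjusted p = 0.12). The 9 fast fibre markers summed to 2267 to 4953 and 4640 to 26735, respectively, and all 9 had a positive difference. By limma none of them was called, although 6 were without Luxi replicate 1, where 591 of all 9697 genes tested were called. With all animals, 6 of them were at an unadjusted limma p under 0.05, beside 2135 of all 9765 genes tested. The 7 adipocyte markers summed to 133.5 to 195.5 and 13.0 to 37.5, and 5 of them were called, all lower in Luxi cattle. When 1 animal was left out, 1 to 5 adipocyte markers were called, with 1 without Shandong Black replicate 1 or 3, 2 without Luxi replicate 2 and 3 without Luxi replicate 3. Of the other lists, fibroblast markers summed to 151 to 189 FPKM in Shandong Black cattle and 385 to 499 in Luxi cattle, with COL3A1 called higher except without Shandong Black replicate 3, macrophage markers to 29.7 to 40.8 and 14.9 to 30.8, and smooth muscle markers to 81.8 to 93.9 and 48.9 to 178. Erythroid and Schwann cell markers stayed under 4 FPKM in every library. No list of these markers was wholly at 0 in a library, although LEP, which encodes leptin, was listed at 0 in Luxi replicate 1. In bulk muscle, fewer cells of a type and less RNA per cell cannot be told apart, and the part of fibre and fat content in the values of the regulators was not tested.

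PPARGC1A lies on the minus strand of chromosome 6 of ARS-UCD1.2, from 43380463 to 43903480. It stood at 2.07, 1.70 and 1.93 FPKM in Shandong Black replicates 1, 2 and 3 and 44.5, 5.18 and 7.14 in Luxi replicates 1, 2 and 3. All Luxi animals were above all Shandong Black animals, and Luxi replicate 1 was far above the other two. The means were 1.90 ± 0.187 and 18.9 ± 22.1 (SD, n = 3 each), with a log2 fold change of 2.19 (SE 0.68). Without Luxi replicate 1 it was 1.29. The 12 exons that all annotated transcripts of PPARGC1A share had higher coverage in every Luxi animal than in every Shandong Black animal, exon by exon, and the log2 ratio of the breed means lay between 2.67 and 5.16.

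The annotation gives PPARGC1A 7 transcripts, whose starts fall into 3 groups. The proximal starts lie between 43486509 and 43487406, the upstream start at 43501203, which is 13927 bases from the proximal exon's start at 43487276, and a far upstream start at 43903480. In mammals, an upstream PPARGC1A promoter is known to respond to exercise and adrenergic signalling. In Luxi replicate 1, 37.2 of 44.5 FPKM (83.6%) lay on transcripts from the upstream start. In Luxi replicates 2 and 3 these transcripts held 0.932 and 3.23 FPKM. In Shandong Black replicates 1, 2 and 3 they held 0.328, 0 and 0.354 FPKM. Transcripts from the proximal starts held 7.14, 4.10 and 3.91 FPKM in the Luxi animals and 0, 1.65 and 1.305 FPKM in the Shandong Black animals. By the FPKM given to annotated and assembled transcripts, the Luxi animals were thus above the Shandong Black animals at both starts. For Luxi replicate 1 this held at the proximal starts only through the assembled transcript. In the coverage of the first exons themselves, given below, the breeds overlapped at both. The high value of Luxi replicate 1 sat mainly on the upstream start.

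Shandong Black replicate 1 had 84.1% of its PPARGC1A FPKM on assembled transcripts that begin at none of the annotated starts. The coverage of the upstream first exon itself, a stretch of 94 bases, was computed per gigabase of aligned sequence, which puts it on the scale of FPKM. It was 2.70, 0 and 1.75 in Shandong Black replicates 1, 2 and 3 and 38.3, 0.657 and 1.64 in the Luxi animals. On this measure the breeds overlapped, and Luxi replicate 1 alone stood above the rest. The proximal first exon had a coverage of 1.68, 0.765 and 0.513 in the Shandong Black animals and 4.77, 1.68 and 1.11 in the Luxi animals, again with an overlap. As a share of the coverage of all annotated first exons, the upstream exon took 61.7, 0 and 77.3% in the Shandong Black animals and 88.7, 26.1 and 59.7% in the Luxi animals (exact two-sided permutation test, p = 0.7, where 3 animals against 3 cannot go below 0.1).

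**Figure D1:**
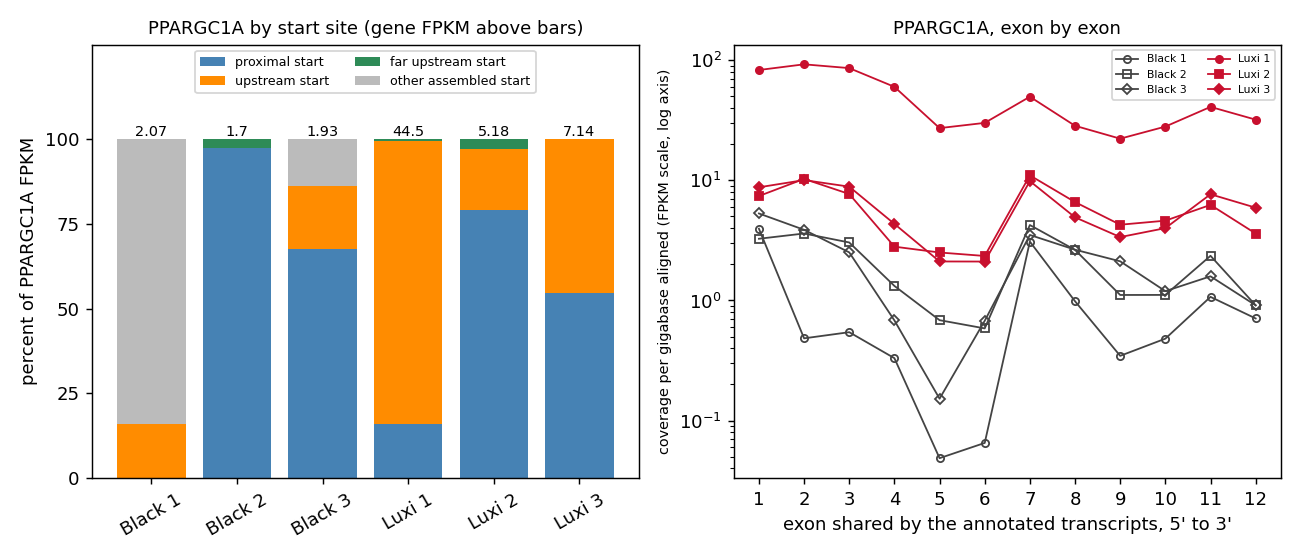
PPARGC1A in each animal. Left, percent of the gene's FPKM on transcripts from each start site, with the gene FPKM above the bar (1.70 to 2.07 in Shandong Black cattle, 5.18 to 44.5 in Luxi cattle). Right, coverage of the 12 shared exons per gigabase aligned (log axis), where the 3 Luxi lines run above the 3 Shandong Black lines at every exon and Luxi replicate 1 is highest.

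PPARGC1B, on the plus strand of chromosome 7 from 61073681 to 61194295, was the other coactivator with non-overlapping breeds. Its FPKM was 0.212, 0.940 and 0.726 in Shandong Black replicates 1, 2 and 3 and 1.80, 5.16 and 2.44 in the Luxi animals. Here Luxi replicate 2 was the highest, not replicate 1. The means were 0.626 ± 0.374 and 3.13 ± 1.78 (SD, n = 3 each), with a log2 fold change of 1.29 (SE 0.33). Most of it came from the annotated start at 61073681, which carried 70.3 to 100% of the FPKM in the Shandong Black animals and 77.99 to 96.3% in the Luxi animals.

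The estrogen-related receptors did not move together. ESRRA, on chromosome 29 from 42603705 to 42611807, stood at 16.1, 14.7 and 16.4 FPKM in the Shandong Black animals and 12.9, 15.9 and 19.1 in the Luxi animals. The means were 15.7 ± 0.895 and 16.0 ± 3.07 (SD, n = 3 each), the breeds overlapped and the log2 fold change was 0.0041 (SE 0.21). ESRRG, on the minus strand of chromosome 16 from 19903561 to 20599522, stood at 7.45, 2.67 and 5.49 FPKM in the Shandong Black animals and 1.53, 0.714 and 2.57 in the Luxi animals. It was the only one of the 10 genes with every Luxi animal below every Shandong Black animal, by a narrow gap between 2.67 and 2.57. The means were 5.21 ± 2.40 and 1.60 ± 0.931 (SD, n = 3 each), with a log2 fold change of -1.23 (SE 0.37).

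ESRRG has annotated starts spread over a long region. The group of starts nearest the 3′ end, between 20148652 and 20149212, held 5.14, 1.38 and 3.59 FPKM in the Shandong Black animals and 0.818, 0.450 and 0.728 FPKM in the Luxi animals. The most distant start, at 20599522, held 1.61, 0.880 and 1.63 FPKM in the Shandong Black animals and 0.446, 0.213 and 1.16 FPKM in the Luxi animals. The breeds did not overlap at the former and overlapped at the latter. The most abundant annotated transcript, of 5190 bases, starts in the group near the 3′ end and took 50.9 to 52.3% of ESRRG FPKM in the Shandong Black animals and 16.8 to 40.4% in the Luxi animals. An exact two-sided permutation test of the share of the 5190-base transcript gave p = 0.1, the smallest possible, and 0.5 after Benjamini-Hochberg adjustment over the 10 genes. The mean that picked this transcript rests mainly on the Shandong Black animals, so nothing is read from the test.

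NRF1, on chromosome 4 from 93450631 to 93581394, stood at 1.297, 0.717 and 0.901 FPKM in the Shandong Black animals and 1.62, 1.36 and 1.66 in the Luxi animals. The breeds did not overlap, the means were 0.972 ± 0.296 and 1.55 ± 0.159 (SD, n = 3 each) and the log2 fold change was 0.38 (SE 0.18). The annotated transcripts of NRF1 were listed at 0 in 4 of the 6 animals, and its FPKM there came wholly from assembled transcripts on its exons. Over the exons shared by its annotated transcripts, coverage was 1.39, 1.62 and 1.72 per gigabase in the Shandong Black animals and 2.40, 2.05 and 1.74 in the Luxi animals, and the gap between the breeds was down to 1.72 against 1.74. TFAM, on chromosome 28 from 45673381 to 45689820, stood at 2.54, 2.28 and 2.58 FPKM in the Shandong Black animals and 1.56, 2.99 and 3.06 in the Luxi animals. Luxi replicate 1 was the lowest of all animals and the other two Luxi animals were the highest. The means were 2.47 ± 0.162 and 2.54 ± 0.842 (SD, n = 3 each), and the log2 fold change of -0.0012 (SE 0.21) went to 0.22 without Luxi replicate 1.

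The PPAR receptors overlapped between the breeds. PPARA, on chromosome 5 from 116438920 to 116513618, stood at 8.46, 6.91 and 9.09 FPKM in the Shandong Black animals and 13.5, 8.07 and 9.21 in the Luxi animals. The means were 8.15 ± 1.12 and 10.3 ± 2.88 (SD, n = 3 each), and the log2 fold change of 0.28 (SE 0.23) went to 0.079 without Luxi replicate 1 and to 0.0061 with the coverage of shared exons. PPARD, on chromosome 23 from 9304224 to 9389930, stood at 4.09, 1.51 and 2.41 FPKM in the Shandong Black animals and 4.003, 1.89 and 2.098 in the Luxi animals. In either breed replicate 1 was the highest. The means were 2.67 ± 1.31 and 2.66 ± 1.16 (SD, n = 3 each), with a log2 fold change of 0.014 (SE 0.32) whose sign differed from one way of computing it to the next.

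PERM1 lies on chromosome 16 from 51493147 to 51498783. Its FPKM was 18.2, 15.8 and 18.5 in the Shandong Black animals and 22.5, 28.0 and 27.5 in the Luxi animals. The breeds did not overlap, with means of 17.5 ± 1.48 and 26.0 ± 3.03 (SD, n = 3 each) and a log2 fold change of 0.54 (SE 0.20). Annotated transcripts carried only 19.7, 32.4 and 32.4% of PERM1 FPKM in the Shandong Black animals and 72.8, 51.2 and 42.0% in the Luxi animals (exact two-sided permutation test, p = 0.1, adjusted p = 0.8 over the 8 genes with both kinds of transcript). Therefore, with the annotated transcripts alone, the log2 fold change of PERM1 was 1.36, whereas the coverage of its shared exons gave 0.50.

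PDK4 lies on the minus strand of chromosome 4, from 12881889 to 12895362, and has 1 annotated transcript of 3779 bases and 11 exons in the files. Its FPKM was 139, 419 and 217 in Shandong Black replicates 1, 2 and 3 and 539, 752 and 738 in the Luxi animals. The breeds did not overlap, and the Shandong Black animals spanned a wider range than the Luxi animals on the log scale. The means were 258 ± 144 and 676 ± 119 (SD, n = 3 each), with a log2 fold change of 1.52 (SE 0.46), which stayed between 1.15 and 1.94 when each animal was left out in turn.

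The sum over transcripts matters for PDK4 more than for the other regulators. The annotated transcript alone stood at 139, 377 and 217 FPKM in the Shandong Black animals but at 20.9, 43.6 and 738 in Luxi replicates 1, 2 and 3, a log2 fold change of -1.33. In Luxi replicates 1 and 2, only 3.88 and 5.79% of PDK4 FPKM was given to the annotated transcript, and the rest to assembled transcripts that begin 520 to 1891 bases before its start. The extra upstream exons of these transcripts reached a coverage of 0.635 to 5.53 reads per base, against at least 749 reads per base over each of the other exons of the same transcripts. The coverage of the 11 annotated exons, whichever transcript the reads were given to, averaged 139, 416 and 217 per gigabase in the Shandong Black animals and 518, 768 and 738 in the Luxi animals, a log2 fold change of 1.51. The log2 ratio of the breed means lay between 1.08 and 1.78 over the single exons, and at 6 of the 11 exons every Luxi animal was above every Shandong Black animal.

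**Figure D2:**
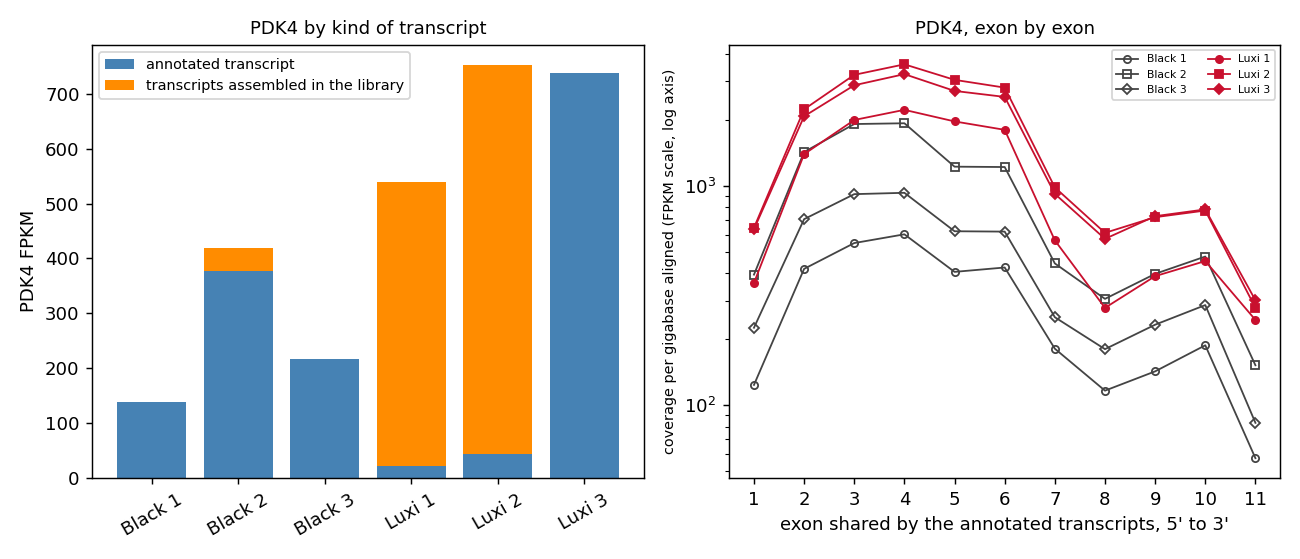
PDK4 in each animal. Left, FPKM on the annotated transcript and on transcripts assembled in the library: the annotated transcript holds 20.9 and 43.6 FPKM in Luxi replicates 1 and 2 and 139 to 738 FPKM in the other animals. Right, coverage of the 11 annotated exons per gigabase aligned (log axis), where Luxi replicates 2 and 3 are highest throughout and Shandong Black replicate 2 passes Luxi replicate 1 at 5 exons.

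Of the 10 genes, 5 had every Luxi animal above every Shandong Black animal (PPARGC1A, PPARGC1B, NRF1, PERM1 and PDK4) and 1 had every Luxi animal below (ESRRG). Among all genes tested, the breeds did not overlap in 29.1%, and every Luxi animal was above in 20.0%. In the limma fit over all genes, 2.55% were called and 0 of the 10 were. These counts describe genes that were chosen on the same values, and nothing is read from them. PPARGC1B and NRF1 averaged under FPKM 1 in Shandong Black cattle (0.626 and 0.972), so they passed the filter only through Luxi cattle. The median log2 fold change of the 10 genes was 0.33, beside 0.13 over all genes tested. The median over all genes tested went to 0.03 with median-of-ratios size factors. In 6 of the 10 genes the SD of log2(FPKM + 1) was larger in Luxi cattle, and over all genes tested its median was 0.312 in Luxi cattle and 0.187 in Shandong Black cattle.

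**Figure D3:**
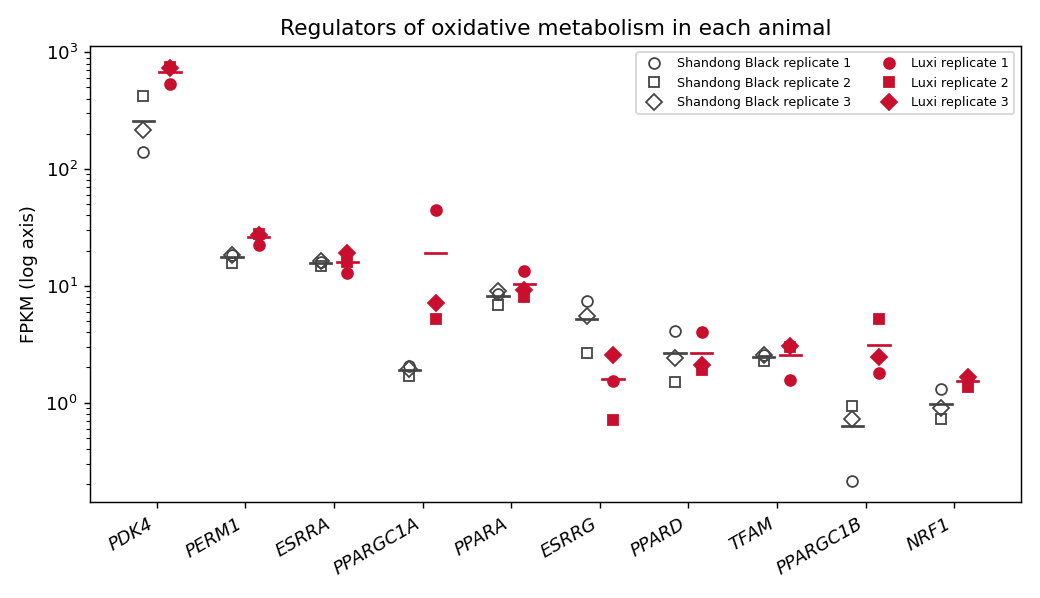
FPKM (log axis) of the 10 regulators in each animal, with open symbols for Shandong Black cattle, filled symbols for Luxi cattle, a symbol shape for each replicate number, and a bar at the mean of each breed (n = 3). The genes are ordered by mean FPKM, from PDK4 at 139 to 752 down to NRF1 at 0.717 to 1.66.

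**Figure D4:**
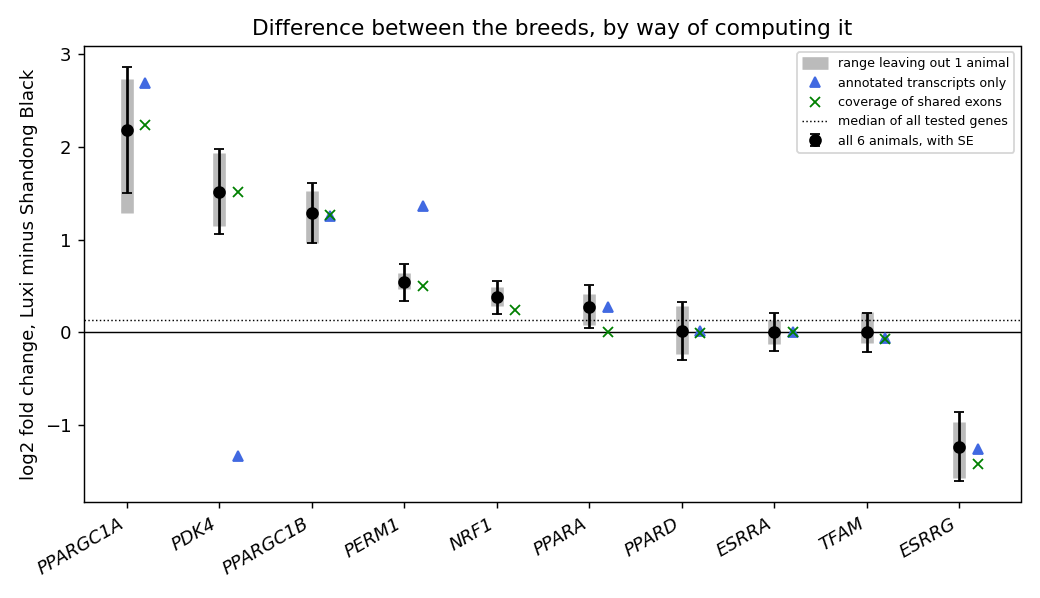
Log2 fold change of each regulator, Luxi minus Shandong Black, with its SE (black), the range when 1 animal was left out (grey), the value from annotated transcripts alone (triangle) and from the coverage of shared exons (cross). For PDK4 the annotated transcript alone gives -1.33 against 1.52, and for PERM1 1.36 against 0.54. NRF1 has no triangle, since its annotated transcripts were too low to enter the test.

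By mean FPKM over the 6 animals, the order of the levels was PDK4 (467), PERM1 (21.8), ESRRA (15.8), PPARGC1A (10.4), PPARA (9.21), ESRRG (3.41), PPARD (2.67), TFAM (2.50), PPARGC1B (1.88) and NRF1 (1.26). On the scale of log2(FPKM + 1), PDK4 was above PERM1 by 4.15 ± 0.78 (SD of the within-animal difference, n = 6), PERM1 above ESRRA by 0.41 ± 0.31 and PPARA above ESRRG by 1.39 ± 0.95, each in 6 of 6 animals. For the other 6 pairs of neighbours the mean within-animal difference was smaller than its SD, and the direction was not shared by all animals. The order was set on the same values, so no test of these pairs is given. PPARGC1A moved most in rank, between second in Luxi replicate 1 and place 8, and its median of 3.62 FPKM lay below the 8.78 FPKM of PPARA although its mean lay above.

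Only ESRRA and PPARD lay wholly on annotated transcripts in all animals. Over the 10 genes and 6 animals, 33 of 60 values were wholly on annotated transcripts and 5 had nothing on them, and the mean share was 77.6%. Transcripts on the opposite strand held at most 2.52% of the coverage of the shared exons in any of the 10 genes and any animal, with the highest values for ESRRA.

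The genes whose log2(FPKM + 1) followed PPARGC1A most closely over the 6 animals, among all genes tested, were MYL12B (Pearson r = 0.998), GRK5 (0.997) and the endothelial gene PECAM1 (0.996). PECAM1 had an FPKM of 8.54 to 9.07 in the Shandong Black animals and 29.0, 11.7 and 14.5 in Luxi replicates 1, 2 and 3. MYL12B, whose near-identical copy MYL12A can share its reads, was low, at 0.00790 to 0.0844 and 3.10, 0.606 and 0.863 FPKM. For PDK4 they were CPEB3 (0.996), MTF1 (0.993) and FKBP5 (0.993), the last a well-known glucocorticoid-induced gene. FKBP5 stood at 13.0, 23.7 and 16.9 FPKM in the Shandong Black animals and 25.8, 33.4 and 35.4 in the Luxi animals. These are the highest among the 9765 genes, over only 6 animals of 2 breeds, and they are given as a description.

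The genes that act with the regulators were taken from 8 lists of 165 genes, which hold none of the 10. Of these, 156 were tested, 5 were not analysed here and 4 were below the filter. By limma with Benjamini-Hochberg adjustment over all genes tested, 7 of the 156 (4.49%) were called, all higher in Luxi cattle, beside 2.55% of all genes tested. The count was 15 of 157 tested without Luxi replicate 1, 14 of them higher in Luxi cattle, beside 591 of all 9697 genes tested. It was 3 without Luxi replicate 2 or 3 or Shandong Black replicate 2. Without Shandong Black replicate 1 it was 1, and without Shandong Black replicate 3 it was 0. Of the 7, ZBTB16, PRKAA2, PDP1 and MRPL12 were called in no fit without 1 animal other than that without Luxi replicate 1. The median log2 fold change of the 156 genes was 0.24, and 68.6% of them had a positive difference, beside 62.6% of all genes tested. The lists were chosen with earlier results of these data known, so these counts and those of each list are given as a description.

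The list nearest to PDK4 holds genes that respond to fasting, FOXO factors or glucocorticoids. All 13 of its tested genes had a positive difference, also with TPM, size factors or quantile normalization (12 of 13 without Luxi replicate 1 or 3 or Shandong Black replicate 1 or 2), and 3 rose past the threshold, with a median log2 fold change of 0.53. FOXO1, a transcription factor known to switch on PDK4 in fasting, stood at 8.24, 4.73 and 5.53 FPKM in the Shandong Black animals and 38.2, 36.0 and 30.5 in the Luxi animals, a log2 fold change of 2.35 (SE 0.24, limma adjusted p = 0.0094). It was called in 16 of 17 other ways of computing, the exception being without Shandong Black replicate 3. PER1, a clock gene also induced by glucocorticoids, stood at 4.05, 5.61 and 5.20 FPKM in the Shandong Black animals and 20.3, 41.0 and 18.7 in the Luxi animals, a log2 fold change of 2.14 (SE 0.32, limma adjusted p = 0.026). The call was lost without Shandong Black replicate 1 or 3, and without the filter on FPKM. ZBTB16, a transcription factor gene induced by glucocorticoids, stood at 7.90, 13.6 and 13.0 FPKM in the Shandong Black animals and 35.3, 31.0 and 43.5 in the Luxi animals. Its log2 fold change was 1.61 (SE 0.27, limma adjusted p = 0.032), and it was called in 9 of 17 other ways of computing. The smallest difference of the list was that of IRS2, with 0.12.

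Among the acute response genes, DDIT4, an inhibitor of mTORC1 that stress and glucocorticoids induce, stood at 6.71, 9.32 and 8.51 FPKM in the Shandong Black animals and 58.0, 68.6 and 41.8 in the Luxi animals. Its log2 fold change was 2.62 (SE 0.25, limma adjusted p = 0.0091), and it was called in 15 of 17 other ways of computing, not without Shandong Black replicate 1 or 3. The other 14 tested genes of the list were not called, 8 with a positive and 6 with a negative difference, and the lowest was the immediate early gene FOS (70.1, 76.99 and 82.9 against 19.7, 56.4 and 64.1 FPKM, log2 fold change -0.86, limma adjusted p = 0.30).

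Upstream of PGC-1, 1 of 25 tested kinase and deacetylase genes was called, and the median log2 fold change was 0.27 (0.13 with quantile normalization). Without Luxi replicate 1, 5 genes of this list were called, PRKAG3 among them, beside 591 of all 9697 genes tested. Without any other animal 0 of the list were called. PRKAA2 encodes the catalytic α2 subunit of AMP-activated protein kinase, the main one in muscle. It stood at 2.76, 3.80 and 4.04 FPKM in the Shandong Black animals and 7.62, 13.0 and 8.48 in the Luxi animals, a log2 fold change of 1.22 (SE 0.24, limma adjusted p = 0.046). PRKAA1, which encodes the α1 subunit, was the gene with the largest fall, at 9.51 ± 2.83 and 5.32 ± 0.663 FPKM (SD, n = 3 each) and a log2 fold change of -0.70 that was not called (limma adjusted p = 0.15). The largest positive difference, 1.64 for PRKAG3, the muscle γ3 subunit, was not called either (limma adjusted p = 0.21), and Luxi replicate 1, at 1.33 FPKM, lay among the Shandong Black animals (0.886 to 2.35 FPKM) while the other Luxi animals were at 12.9 and 12.6. PRKAA2 was called in 6 of 17 other ways of computing, and not with size factors or quantile normalization.

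None of the 26 nuclear receptor partners, other coactivators and corepressors was called (limma, median log2 fold change 0.29). At an unadjusted limma p under 0.05 were 11 of them, beside 2135 of all 9765 genes tested. Without Luxi replicate 1, NR4A1, PPARG and RXRA were called, beside 591 of all 9697 genes tested. With annotated transcripts alone PPARG was called, lower in Luxi cattle. The median was 0.18 with size factors and 0.15 with quantile normalization. Their extremes were NR4A1, an orphan receptor gene induced by exercise, at 13.6 ± 3.55 and 47.8 ± 30.7 FPKM (SD, n = 3 each) with a log2 fold change of 1.45, and ESRRB, the remaining estrogen-related receptor gene, at 7.31 ± 2.48 and 3.19 ± 2.02 FPKM (SD, n = 3 each) with a log2 fold change of -1.07. ESRRB thus had the sign of ESRRG, with an overlap between the breeds and a limma adjusted p of 0.18.

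In the list of fatty acid uptake, oxidation and pyruvate dehydrogenase control, 16 of 24 tested genes had a negative difference and the median log2 fold change was -0.25 (-0.47 with TPM and -0.39 with quantile normalization). The gene that was called went the other way: PDP1, the phosphatase that opposes the PDK kinases on pyruvate dehydrogenase, stood at 4.34, 4.94 and 4.11 FPKM in the Shandong Black animals and 10.1, 10.9 and 9.50 in the Luxi animals, a log2 fold change of 1.03 (SE 0.17, limma adjusted p = 0.029). PDP1 was called in 6 of 17 other ways of computing and not with TPM, size factors or quantile normalization. The lowest was FABP3, the muscle fatty acid binding protein, at 142 ± 20.2 and 60.0 ± 29.2 FPKM (SD, n = 3 each) and a log2 fold change of -1.32 that was not called (limma adjusted p = 0.10). With TPM or quantile normalization FABP3 and CPT1B were called lower in place of PDP1. Of the 9 slow fibre markers 8 were lower in Luxi cattle too, and their part in this was not tested.

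Of the 27 tested genes of the respiratory chain and citrate cycle, 23 had a positive difference and none was called (limma, 5 at an unadjusted p under 0.05, median log2 fold change 0.33). Of the 9765 genes tested in all, 62.6% had a positive difference and 2135 were at an unadjusted limma p under 0.05. The median of this list was 0.19 with size factors, where 19 of 27 were positive. The largest difference, 1.33 for COX7A1, a muscle subunit of cytochrome c oxidase, had an SE of 1.02 and overlapping breeds, and the lowest was -0.29 for COX5A. Of the 15 tested genes of mitochondrial DNA upkeep and expression, 1 was called and 9 had a negative difference, with a median log2 fold change of -0.02 (-0.16 with quantile normalization and 0.0038 without Luxi replicate 3). MRPL12, a mitochondrial ribosomal protein that also binds the mitochondrial RNA polymerase, stood at 4.56, 5.18 and 4.89 FPKM in the Shandong Black animals and 10.9, 11.0 and 12.6 in the Luxi animals, a log2 fold change of 1.09 (SE 0.17, limma adjusted p = 0.027). It was called in 9 of 17 other ways of computing, and not with size factors or quantile normalization. The lowest was MTERF3, a negative regulator of mitochondrial transcription, with a log2 fold change of -0.46 that was not called (limma adjusted p = 0.16). None of the 11 tested genes of mitochondrial fusion, fission and turnover was called (limma, 1 at an unadjusted p under 0.05, median log2 fold change 0.24, 0.09 with quantile normalization and also without Shandong Black replicate 2), and PINK1, with the largest difference of 1.12, rested on Shandong Black replicate 2, at 0.541 FPKM against 39.9 to 149 FPKM in the other animals. The lowest was BNIP3L, with -0.39.

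**Figure D5:**
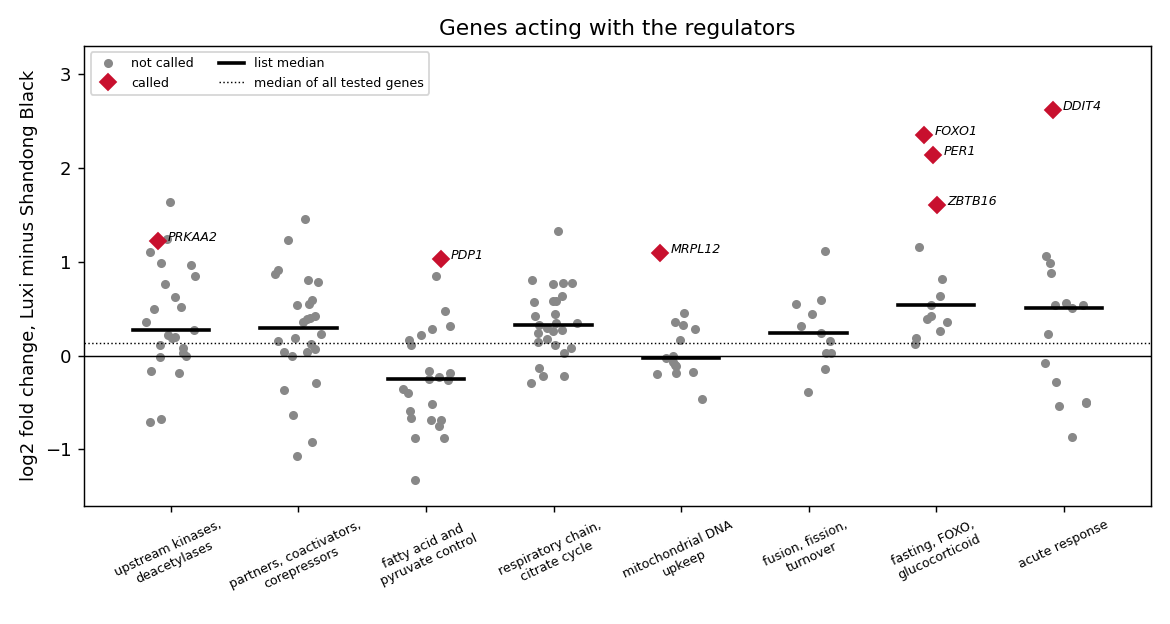
Log2 fold change, Luxi minus Shandong Black, of each tested gene (grey, called genes in red and named) in the 8 lists of genes that act with the regulators, with the list median (black bar) and the median of all tested genes (dotted, 0.13). The fasting, FOXO and glucocorticoid list lies wholly above 0, and the list of fatty acid and pyruvate control has the lowest median, -0.25.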

How the data were processed

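Total RNA of longissimus dorsi was sequenced from Illumina TruSeq libraries. Per the authors' methods, Fastp trimming was followed by HISAT alignment to ARS-UCD1.2 and reference-based StringTie assembly. The deposited file headers name StringTie 1.3.3b, while the methods give another version, and show an NCBI annotation as guide and the strand setting for reversed reads. The deposited FPKM and coverage of each transcript stand in a text field with its other attributes, and a transcript absent from a library counts as 0. Coverage divided by FPKM gives the aligned gigabases (14.1 to 17.99). Read counts were not used here, so the fit has no term for the number of reads behind a low value. Precision is also limited by 3 animals a breed.

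Gene FPKM followed the rule given in the results. Transcripts without a gene name that fall outside it held 21.9 to 30.8% of a library's FPKM. Among them are the mitochondrial transcripts, mostly annotated, with 4.82 to 16.6% of a library's FPKM. Genes were fitted with limma 3.58.1 (lmFit, eBayes with trend) in R 4.3.3 on log2(FPKM + 1), without covariates, adjusted over 9765 genes and checked on simulated data. Replicates are different animals. Other tests were exact permutation tests in scipy. The members and lists were chosen with earlier results of these data known. The text names all members, the called genes and the largest rise and fall of each pathway list, and the 3 genes most correlated with PPARGC1A and PDK4. Of the cell type marker lists it names only some genes. Other genes named from the lists were chosen after their values were seen. Alternatives were another pseudocount, filter, scaling, trend or transcript rule, a replicate block and leaving out each animal. The rule of 10% of bases on exons and the shared-exon coverage were added after seeing the data. Gene names were matched to the ARS-UCD2.0 gene table (91.3% found, all 10 members), whose coordinates were not used. Cuffdiff, which the study used, was not run.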

Additional observations from a re-analysis of the deposited data

How the results depend on the processing

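The log2 fold changes of PPARGC1A, PPARGC1B, ESRRG, NRF1, PPARA (down to 0.0061 with the coverage of shared exons) and PERM1 kept their sign in every alternative run, whereas those of ESRRA, TFAM and PPARD, all near 0, changed sign in 6, 3 and 8 of 17 or 18 alternatives. Among these alternatives, the changed filters, eBayes without trend and the replicate block cannot alter a log2 fold change, so they are no check of its sign. PDK4 changed sign only with annotated transcripts alone (-1.33) and went to 0.74 when assembled transcripts needed 90% of their bases on exons, where the largest transcript of Luxi replicate 2, at 88.9%, fell out. A pseudocount of 0.1 gave 2.19 for PPARGC1B and 0.65 for NRF1. With 10% of bases, a rule added after seeing the data, PPARD went to -0.10.

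The count of genes called, 249, went to 65 without a filter on FPKM, 139 with a mean FPKM of at least 5 and 162 with annotated transcripts alone. Leaving out 1 animal gave 3 to 591 genes: 15, 185 and 3 without Shandong Black replicates 1, 2 and 3, and 591, 48 and 86 without Luxi replicates 1, 2 and 3. Of the 249, 152 were higher and 97 lower in Luxi cattle, but 114 and 136 with size factors and 125 and 164 with quantile normalization. The count of pathway genes called, 7, went to 4 without a filter and to 4 with size factors, and to between 0 and 15 when 1 animal was left out: 1, 3 and 0 without Shandong Black replicates 1, 2 and 3, and 15, 3 and 3 without Luxi replicates 1, 2 and 3. The causes of these shifts were not tested. Same-numbered animals of the breeds are different animals, and the correlations of their deviations (0.090, 0.090 and 0.082) did not reach 0.1, although each Shandong Black animal correlated best with its own number. The replicate block gave 134 genes and 3 pathway genes. The sign-flip test of neighbouring levels was not used, since its order was set on the same values. The mean annotated share was 76.4 to 79.2% with each animal left out in turn.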

Other observations

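TFAM acts on mitochondrial DNA, whose transcripts carry no gene names in the files and enter none of the gene values above. Summed over the mitochondrial chromosome, FPKM was 26248, 19498 and 24437 in Shandong Black replicates 1, 2 and 3 and 49331, 20553 and 20325 in Luxi replicates 1, 2 and 3. Luxi replicate 1, the animal with the highest PPARGC1A and the lowest TFAM, had 16.6% of all its FPKM there, against 4.82 to 7.91% in the other 5 animals, and the breeds overlapped. The same animal had the lowest sum of skeletal muscle markers, though not the lowest value of TTN, MB, MYBPC1 or PYGM.

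Some assembled transcripts lie on the regulators with 10 to 50% of their bases on exons and were left out of the gene values. They held 0.552, 1.11 and 1.44 FPKM for ESRRG in Shandong Black replicates 1, 2 and 3 and 0, 0.277 and 0.671 FPKM in the Luxi animals. For PPARA they held 1.75 FPKM in Luxi replicate 3 and none elsewhere, and for PPARD 0.884 FPKM in Shandong Black replicate 3 and none elsewhere.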
